A study of Homo sapiens with 16 samples.

Results

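Distal BCL11A regions that also carried ZBTB7A are described here across the deposited peak lists of the series. They were defined as BCL11A regions on the standard chromosomes, chromosome 11 left out, whose midpoint lay more than 5 kb from every start of a protein-coding (NM) transcript in the deposited annotation and which shared at least 1 bp with a ZBTB7A region of K562 cells or of wild-type (WT) HUDEP-2 cells. The rule selected 3252 regions, called shared distal regions below, out of 12245 BCL11A regions in all. Another 2260 distal BCL11A regions had no ZBTB7A region in either list and serve as the comparison.

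All values come from chromatin immunoprecipitation with sequencing (ChIP-seq), in which an antibody pulls down a protein with the DNA it is bound to and the enriched stretches are listed as regions. BCL11A was precipitated through the V5 tag of an introduced BCL11A-ER-V5 fusion in HUDEP-2, a human line that grows as immature red cells, after 24 h of 4-hydroxytamoxifen at 1e-07 M (2 ChIP and 2 control libraries). ZBTB7A was precipitated with antibodies to the protein itself in HUDEP-2 cells titled 195C>G, a base change of the fetal globin promoter (1 ChIP and 1 control library), in HUDEP-2 cells titled WT (1 and 1), and in K562, a human erythroleukaemia line (4 and 4). Titles of the 195C>G and WT cells both carry ΔGγ, the mark for a deleted Gγ-globin gene. Control libraries are titled input, while their antibody label is IgG. How many clones each HUDEP-2 derivative represents, and what drives the BCL11A fusion, are not given in the sources used here. The lists hold no expression values, so cell identity could not be checked against marker genes. The BCL11A and K562 lists combine replicates, and for WT and for 195C>G there is a single library, so no error between replicates exists, no test was made, and no p-value is given. Read depth is unknown. Intervals are exact 95% intervals that cover counting error only, since neighbouring regions are not independent samples; that of a difference averaged over deciles is a normal approximation.

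BCL11A and ZBTB7A (also called LRF) are zinc-finger proteins that silence the fetal γ-globin genes in adult red cells, and both recruit corepressors such as the NuRD complex. BCL11A recognises the word TGACCA in DNA, and ZBTB7A recognises GC-rich words that contain GACCC. Away from promoters, erythroid factors gather at enhancers, stretches of open DNA that raise the activity of a gene at a distance and often hold GATA words bound by GATA1.

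Sequence was at hand only where a shared distal region reached the start of a RefSeq gene that the NM starts of the deposited annotation do not include. The RefSeq table (GRCh38.p14) gives windows from 250 bases before to 50 after each gene start, and 142 of the 3252 shared distal regions (4.37%, 3.69 to 5.13%) touched such a window, against 66 of the 2260 distal regions without ZBTB7A (2.92%, 2.27 to 3.70%). Of the 145 windows touched by shared distal regions, 101 belonged to long noncoding RNA genes and 44 to protein-coding genes. The parts before the gene start that lay inside a shared distal region are printed for 6 of them, 5′ to 3′ on the strand of the gene, to show DNA inside regions listed for both proteins. They were picked after their values were seen, for a high BCL11A score (LINC02394, LOC124901072, EML1) or for a role in red cells or in signalling (SPTB, ACSL6, SMAD3). Capitals mark, on either strand, the GATA words (GATAA or GATAG with A or T before it), the BCL11A word TGACCA and the ZBTB7A word GACCC. The stretches lie at chr12:74021883-74022079 (plus strand), chr5:135134112-135134361 (plus), chr14:99737516-99737721 (plus), chr14:64879908-64880114 (minus), chr5:131994600-131994849 (minus) and chr15:67098429-67098678 (plus), in the order printed.
LINC02394: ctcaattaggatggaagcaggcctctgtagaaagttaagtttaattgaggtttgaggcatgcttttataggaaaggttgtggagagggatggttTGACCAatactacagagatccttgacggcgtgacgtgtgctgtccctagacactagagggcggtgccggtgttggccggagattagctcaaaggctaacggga
LOC124901072: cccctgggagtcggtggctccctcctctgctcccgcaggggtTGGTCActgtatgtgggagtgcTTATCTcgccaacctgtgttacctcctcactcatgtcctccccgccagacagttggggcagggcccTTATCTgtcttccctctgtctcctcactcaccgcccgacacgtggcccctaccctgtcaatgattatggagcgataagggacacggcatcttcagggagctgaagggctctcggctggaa
EML1: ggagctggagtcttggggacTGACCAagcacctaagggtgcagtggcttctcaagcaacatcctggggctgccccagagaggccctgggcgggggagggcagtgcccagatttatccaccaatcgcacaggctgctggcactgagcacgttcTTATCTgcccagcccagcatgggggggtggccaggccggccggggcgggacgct
SPTB: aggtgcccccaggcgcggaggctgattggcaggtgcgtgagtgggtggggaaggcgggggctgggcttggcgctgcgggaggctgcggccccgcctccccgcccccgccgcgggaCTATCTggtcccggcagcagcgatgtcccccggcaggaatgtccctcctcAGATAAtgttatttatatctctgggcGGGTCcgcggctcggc
ACSL6: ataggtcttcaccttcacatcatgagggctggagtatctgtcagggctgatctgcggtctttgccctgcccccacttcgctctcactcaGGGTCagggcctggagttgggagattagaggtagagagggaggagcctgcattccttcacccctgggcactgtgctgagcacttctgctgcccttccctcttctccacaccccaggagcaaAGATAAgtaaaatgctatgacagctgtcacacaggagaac
SMAD3: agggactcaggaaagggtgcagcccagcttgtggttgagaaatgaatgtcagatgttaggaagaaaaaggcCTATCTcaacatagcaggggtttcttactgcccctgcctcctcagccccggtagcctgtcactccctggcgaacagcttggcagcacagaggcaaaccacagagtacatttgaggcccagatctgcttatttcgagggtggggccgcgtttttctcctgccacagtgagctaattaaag

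Score is the authors' value of a BCL11A region, signal that of a WT or 195C>G region, and place the position of a region in the K562 list, which has no value; none is comparable between lists. LINC02394, a noncoding gene, lay in the region of BCL11A rank 111 (score 404, WT signal 17.9, 195C>G signal 38.4), and its stretch held TGACCA and no GATA word. The stretch of LOC124901072, also noncoding, held 2 GATA words and 1 TGACCA in a region found in all lists (BCL11A score 221, WT signal 84.4, 195C>G signal 126). EML1, which encodes a microtubule-binding protein, had 1 GATA word and 1 TGACCA (score 177, WT signal 66.4, 195C>G signal 42.5). The SPTB stretch, from the gene of the red cell skeleton protein β-spectrin, held 2 GATA words and 1 GACCC. Its region had a BCL11A score of 49.7, place 13617 in K562, no WT region and a 195C>G signal of 29.7. The nearest NM start of the deposited annotation to it was that of CHURC1, 34.4 kb away. ACSL6, a fatty acid activating enzyme of red cells and brain, had 1 GATA word and 1 GACCC (score 49.3, WT signal 27.6, 195C>G signal 35.4). SMAD3, a mediator of TGF-β signalling, had 1 GATA word (score 32.7, WT signal 49.3, 195C>G signal 54.2). Each stretch picked for a high score held TGACCA. That of MIR365BHG, with a higher score (226) than LOC124901072 and EML1, held 1 GATA word and no TGACCA and is not printed. The printed stretches were picked, and other stretches of higher score are not printed, so how often the words occur is given only over all touched windows.

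Over whole windows of 300 bases on either strand, a GATA word occurred in 41 of the 145 windows touched by shared distal regions (28.3%, 21.1 to 36.3%), in 12 of the 71 touched by distal regions without ZBTB7A (16.9%, 9.05 to 27.7%) and in 24.8% of all 33223 RefSeq windows. TGACCA occurred in 16.6% (10.9 to 23.6%), 19.7% (11.2 to 30.9%) and 10.7% of these windows, and GACCC in 71.0% (62.9 to 78.3%), 71.8% (59.9 to 81.9%) and 47.5%. Intervals of the windows with and without ZBTB7A overlapped for each of these words. They also overlapped for the E-box CANNTG (66.9 and 64.8%), for CCACCC (49.7 and 40.8%), for CCGCCC (69.0 and 59.2%) and for TGACTCA with its reverse complement TGAGTCA (8.28 and 5.63%). Of all RefSeq windows, 68.6% held CANNTG, 34.3% CCACCC, 45.1% CCGCCC and 4.92% TGACTCA. The words share letters with base composition, and median GC content was 67.7% in windows touched by shared distal regions, 66.3% in those touched by distal regions without ZBTB7A and 58.7% in all windows. A word in a window is not a bound site. The windows lie at gene starts, were touched by only 4.37% of the shared distal regions and include bases outside those regions. They do not describe the words of the other shared distal regions.

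Of the distal BCL11A regions 59.0% were shared (57.7 to 60.3%), against 65.2% of all BCL11A regions, which is the rule itself and is given as a description. Most shared distal regions owed their place to HUDEP-2. Of the 3252, 1969 (60.5%) were overlapped by a WT and no K562 region, 1001 (30.8%) by a WT and a K562 region, and 282 (8.67%) by a K562 and no WT region. Among all BCL11A regions a WT region overlapped 57.5% and a K562 region 31.8%. The WT list covered 18.6 Mb of DNA without chromosome 11 and the K562 list 5.80 Mb.

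Just inside the 5 kb limit stood regions 5003 bp from the start of NDUFA5 (score 21.1) and 5016 bp from that of C15orf62 (score 21.5), and just outside stood a region 5000 bp from the start of SPATA20 (score 113). The smallest overlap that sufficed was 3 bp, with K562, for a region nearest to IQSEC1 (score 23.01).

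The list of 195C>G cells was not used to choose the regions and showed whether ZBTB7A was found there again in a further library. It held 17790 regions over 9.11 Mb, against 34582 over 18.6 Mb in the WT list, chromosome 11 left out. Whether ZBTB7A was lost where 195C>G had no region was not tested. A 195C>G region overlapped 2026 of the 3252 shared distal regions (62.3%, 60.6 to 64.0%), against 110 of the 2260 distal regions without ZBTB7A (4.87%, 4.02 to 5.84%). Over all 12245 BCL11A regions the share was 39.6%, and over shared regions within 5 kb of a start it was 55.3% (53.9 to 56.8%). Among shared distal regions the share was 82.8% (80.3 to 85.1%) where both K562 and WT had a region, 59.5% (57.3 to 61.7%) where only WT had one, and 8.87% (5.82 to 12.8%) where only K562 had one. The intervals of these subsets did not overlap each other. The interval of the regions with K562 alone overlapped that of the distal regions without ZBTB7A. WT and 195C>G share cell line, antibodies and peak caller, whereas K562 differs in cell line and peak calling together, and these cannot be told apart. The distal regions without ZBTB7A were chosen for having no WT region, so their low share in 195C>G follows in part from the rule.

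**Figure D1:**
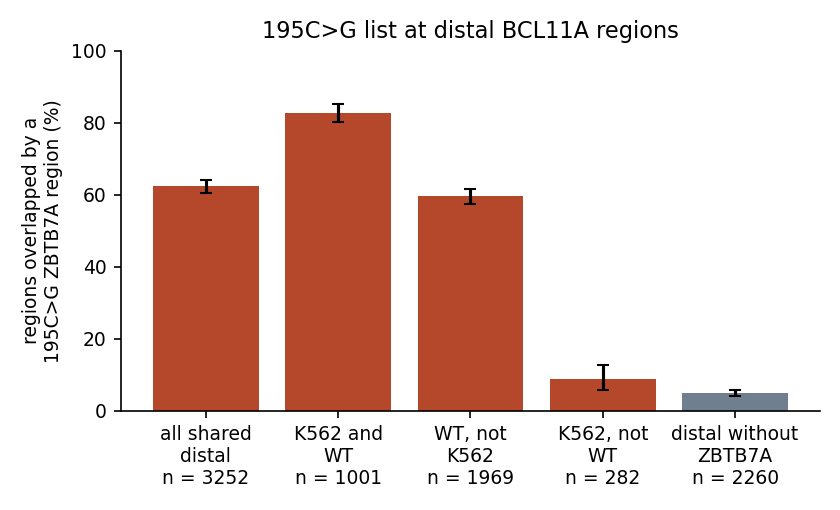
Share of distal BCL11A regions overlapped by a 195C>G ZBTB7A region (vertical axis, percent), for all shared distal regions, for the subsets by which other list held them, and for distal regions without ZBTB7A. Bars are shares and error bars exact 95% intervals; the bars run from 82.8% where K562 and WT both had a region to 4.87% without ZBTB7A.

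On chromosome 19 fewer of the shared distal regions were found in 195C>G. There 179 of 340 (52.6%, 47.2 to 58.1%) were overlapped, against 63.4% (61.6 to 65.2%) of the 2912 on other chromosomes. At the same time chromosome 19 had the highest share of distal BCL11A regions that were shared, 72.0% (67.7 to 76.0%), and held 10.5% of all shared distal regions and 5.84% of the distal regions without ZBTB7A. Chromosome 8 stood opposite, with 181 of 397 distal regions shared (45.6%, 40.6 to 50.6%) and 134 of those 181 found in 195C>G (74.0%, 67.0 to 80.3%). It held 5.57% of the shared distal regions and 9.56% of those without ZBTB7A. These shares did not run opposite on every chromosome. On chromosome 22, 65.7% of distal regions were shared and 71.0% of those were in 195C>G, and on chromosome 21 the shares were 45.9 and 43.6%.

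Shared distal regions had higher BCL11A scores. Their score, a value of the authors on a scale that is not stated, ranged from 12.9 through a median of 34.5 (33.5 to 35.6) to 2348, against 12.8 through 23.7 (23.03 to 24.56) to 614 in distal regions without ZBTB7A. The top 10% began at 137 in shared distal regions and at 72.1 in those without ZBTB7A, and both distributions overlapped over most of their range. Among the strongest 10% of all distal regions, 443 of 552 (80.3%, 76.7 to 83.5%) were shared, and among the weakest 10% 228 of 552 (41.3%, 37.2 to 45.5%), with no decile out of order between them. K562 overlap was 39.3% in the strongest 10% and 14.7% in the weakest, and WT overlap 70.8 and 39.3%.

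The difference in score depended on how overlap was counted. With a reciprocal overlap of at least 50%, the medians were 29.5 (28.6 to 30.6) in shared distal regions and 28.8 (27.7 to 29.9) in those without ZBTB7A, and the intervals overlapped. Median width was 340.5 bp in the strongest decile of score, 221 bp in the second, 201 bp in the third and 370 bp in each of the others, and a region under 322 bp cannot reach this overlap with a WT region of the median width of 644 bp. There were 1207 distal regions under that width, of which 810 were shared (67.1%, 64.4 to 69.8%). Among regions of exactly 370 bp, the most common width, the medians were 24.8 (24.1 to 25.4) in shared distal regions and 20.6 (20.1 to 21.2) in those without ZBTB7A.

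Within the shared distal regions the overlap with 195C>G was somewhat lower at lower BCL11A scores. Counted from the strongest, it lay between 63.8 and 67.5% in deciles 1 to 4 of score and between 57.8 and 60.5% in deciles 5 to 10. A 195C>G region was present at 66.6% (62.0 to 71.0%) of the shared regions in the strongest decile of score and at 60.1% (53.4 to 66.5%) of those in the weakest, with overlapping intervals. In distal regions without ZBTB7A the same shares were 5.50% (2.05 to 11.6%) and 2.78% (1.28 to 5.21%). The score was also similar across subsets by list, with a median of 36.1 (34.1 to 38.5) with both K562 and WT, 33.5 (32.0 to 34.8) with WT only and 36.1 (31.8 to 41.5) with K562 only.

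ZBTB7A signal was higher where BCL11A was present. For each of the 2970 shared distal regions with a WT region, the strongest such region had a median signal of 36.8 (35.5 to 37.9), with 15.0 as the lowest and 378 as the highest, and 696 of them (23.4%) reached the strongest 10% of the WT list. Distal WT regions, defined by their summits, were then split by BCL11A. The 3540 with a BCL11A region had a median signal of 32.4 (31.7 to 33.3), against 22.3 (22.1 to 22.5) in the 14049 without.

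Distal WT regions with BCL11A were found in 195C>G in 2530 of 3540 cases (71.5%, 70.0 to 73.0%), and those without BCL11A in 6197 of 14049 (44.1%, 43.3 to 44.9%). The share over all distal WT regions was 49.6%. Signal differed between the groups, so regions were compared within deciles of WT signal. In the strongest decile the shares were 96.6% (95.1 to 97.8%) with BCL11A and 94.9% (93.3 to 96.2%) without, with overlapping intervals. In the fifth decile they were 63.2% (57.7 to 68.5%) with BCL11A and 45.1% (42.5 to 47.7%) without, and in the weakest 38.9% (31.5 to 46.8%) with BCL11A and 18.8% (16.9 to 20.8%) without. Averaged over the deciles the difference, with minus without BCL11A, was 15.1 percentage points (13.2 to 17.0), and it was 10.7 points (8.25 to 13.2) with a reciprocal overlap of at least 50% and 10.4 points (7.64 to 13.2) with the stronger 50% of each list. The difference in K562 overlap computed in the same way was 6.90 points (5.18 to 8.63). The widths of the intervals rest on counts of regions in 1 library per genotype.

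ZBTB7A summits lay close to the middle of the BCL11A regions. The distance from the nearest WT summit to the midpoint had a median of 68 bp (65 to 71), and 65.3% of the 2970 summits lay within 100 bp and 87.1% within 200 bp. The signed offset centred on 4.25 bp, so summits fell about evenly to both sides. For the 2026 regions with a 195C>G summit the median distance was 67 bp (63 to 70). In the 2001 regions with both, WT and 195C>G summits lay a median of 37 bp (35 to 39) from each other, which is closer than either lay to the BCL11A midpoint. In BCL11A regions within 5 kb of a start the median distance from the WT summit was 100 bp (97 to 105), and 50.1% lay within 100 bp. The overlap that the rule requires keeps summits near the region in both sets, and the BCL11A list gives no summit of its own.

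Introns and intergenic DNA held similar shares of the shared distal regions. Midpoints fell in introns of NM transcripts in 1426 cases (43.8%), outside any transcript in 1445 (44.4%), in noncoding (NR) transcripts in 217 (6.67%), in coding exons in 92 (2.83%) and in untranslated regions in 72 (2.21%). In distal regions without ZBTB7A introns took 45.5%, intergenic DNA 42.8% and coding exons 4.20%. The nearest NM start was a median of 25.9 kb (24.97 to 27.17) from shared distal regions and 28.5 kb (27.0 to 30.7) from those without ZBTB7A. Of the shared distal regions 455 (14.0%, 12.8 to 15.2%) lay more than 100 kb away, against 18.4% (16.8 to 20.1%) without ZBTB7A.

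The shared distal region of highest BCL11A score was also first in the whole BCL11A list. It lay in an intron of ZFPM1, which encodes FOG1, the cofactor of GATA1, 38.3 kb from the start (chromosome 16, 88491496 to 88492245, hg38). Its score was 2348, with place 4545 in K562, a WT signal of 118 at rank 623 and a 195C>G signal of 197 at rank 89. ZFPM1 held a second strong region at 88497652 to 88498283, with a score of 460 (rank 83), place 427 in K562, a WT signal of 267 (rank 14) and a 195C>G signal of 307 (rank 6). Of the 2 regions the first was higher for BCL11A and the second for ZBTB7A in both HUDEP-2 lists. Ranks and places count from the strongest or first listed region without chromosome 11.

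Of the 20 shared distal regions with the highest BCL11A score, 15 were in WT, 13 in K562, 12 in 195C>G and 7 in all of these. Over all 3252 shared distal regions the shares were 91.3% in WT, 39.5% in K562, 62.3% in 195C>G and 25.5% in all of these. An intron of UBE2O, a ubiquitin-conjugating enzyme of maturing red cells, held the region of rank 4 (score 1482, place 549 in K562, WT signal 108, 195C>G signal 149; nearest start SPHK1, a sphingosine kinase gene). A region 8.11 kb from CYB561, a transmembrane electron carrier, stood at rank 10 (score 1206, place 595, WT signal 86.3, 195C>G signal 116). RREB1, a RAS-responsive zinc-finger factor, had rank 16 in its own intron (score 1084, place 1146, WT signal 62.5, 195C>G signal 87.9). SH3GL1, an endophilin of membrane uptake, had rank 17 (score 1083, place 987, WT signal 83.0, 195C>G signal 95.6). OAZ1, which limits polyamine synthesis, and FAHD1, a mitochondrial enzyme, completed the 7, with scores of 948 and 879 and WT signals of 106 and 65.1.

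Of all shared distal regions 8.67% were in K562 and not in WT. Of the 20, a further 5 were in K562 and in neither HUDEP-2 list of ZBTB7A. One lay 229 kb from the nearest start, that of GSE1 (chromosome 16, 85381925 to 85382526), with a score of 1473 at rank 6 and place 317 in K562. The others were nearest to SMAD7, an inhibitor of TGF-β signalling (score 1099, place 2311, in an intron of CTIF), DNAJB8, a chaperone (score 1092, place 439), NEURL1, a ubiquitin ligase (score 803, place 10736), and SPDEF, an ETS factor (score 732, place 180). In these regions BCL11A of HUDEP-2 stood among its 35 best ranks and the ZBTB7A lists of the same cell line had no region.

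The remaining 8 were in WT with or without another list. Among them, one near NDEL1, a regulator of dynein, had rank 11 (score 1162) beside a WT signal of 15.3, close to the lowest of that list. Regions nearest to CDC5L (a splicing factor), TNIP1 (an inhibitor of NF-κB), MYC and GINS2 (a replication factor) were in WT and 195C>G and not in K562, with scores from 1143 to 861. PIGZ, a mannosyltransferase of membrane anchors, had a region in K562 and WT (score 836, WT signal 26.6) and not in 195C>G.

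Of the 3252 shared distal regions 829 (25.5%, 24.0 to 27.0%) were found in K562, WT and 195C>G. The best sum of BCL11A, K562 and WT ranks, 461, was that of a region 65.1 kb from LCTL (chromosome 15, 66630912 to 66631332), with a BCL11A score of 267, place 168 in K562 and a WT signal of 216. TESC, which encodes the calcium-binding protein tescalcin, followed with an intronic region (score 349, place 276, WT signal 231, 195C>G signal 286). MYL4, a myosin light chain gene of embryonic muscle, had a score of 334, place 290 and a WT signal of 208 in an intron. The second ZFPM1 region came next. REXO1, an RNA exonuclease gene, had a score of 458, place 437 and a WT signal of 248 in an intron. KIAA1551, CREB3L3 (a factor of the endoplasmic reticulum), ADIPOR2 (an adiponectin receptor), ANXA3 (an annexin) and RBP5 (a retinol-binding protein) completed the 10, with scores from 431 to 183 and WT signals from 212 to 128.

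Most shared distal regions stood alone, and some were grouped. Joining regions whose midpoints lay within 12.5 kb left 2057 regions alone, while 487 fell into 136 groups of 3 or more and 84 into 13 groups of 5 or more. A group of 12 with NANOS3 as the nearest gene, an RNA-binding protein gene of germ cells, spanned 23.5 kb of chromosome 19 (13839054 to 13862516), with scores from 14.5 to 153. All 12 were in WT, 8 in 195C>G and 7 in K562, beside 91.3, 62.3 and 39.5% of all shared distal regions. No distal BCL11A region with NANOS3 as the nearest gene lacked ZBTB7A. A group of 8 at ARID3A and WDR18 spanned 36.1 kb of chromosome 19, 7 of them in WT and 6 in 195C>G, with ARID3A, a DNA-binding factor, holding the best score of 510. The ZFPM1 group held 7 regions in 22.2 kb, all 7 in WT and 6 in 195C>G. Some regions overlap without being identical, and merging them left 3061 separate stretches out of 3252.

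By gene, MYC had the most shared distal regions, 14, beside 16 distal regions without ZBTB7A. MYC encodes a growth factor-responsive transcription factor, and the regions lay 156 to 313 kb from its start, the strongest in the noncoding gene PVT1 (chromosome 8, 128044761 to 128045340; score 977, WT signal 142, 195C>G signal 179, not in K562). Of the 14, 10 were in WT, 8 in 195C>G and 7 in K562, beside 91.3, 62.3 and 39.5% of all shared distal regions. MYC led by number, while fewer of its distal regions were shared than the 59.0% of all distal BCL11A regions. GSE1, which encodes a partner of histone deacetylase complexes, had 12 shared distal regions beside 9 without ZBTB7A, and NANOS3 had 12 beside 0. JARID2, a Polycomb cofactor gene, had 10 beside 4, and TNS3, a focal adhesion gene, 9 beside 6, none of the 9 in K562.

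Genes of the red cell programme were counted when they were the nearest gene or the host of a shared distal region. This held for 13.3% of all 18069 NM genes, and 10.4% had a distal region without ZBTB7A in the same way. Erythroid transcription factors were counted in 20 of 31 cases (64.5%, 45.4 to 80.8%), with 12 beside a region without ZBTB7A. The shares depend on how much DNA belongs to each gene, and the lists were drawn up with earlier results known, so they are descriptions. After ZFPM1 and MYC, RUNX1, a factor of blood stem cells, had a score of 455 (place 2708, WT signal 21.0, 195C>G signal 62.4) 57.1 kb from its start. LYL1, a partner of GATA factors, had 344 (WT signal 184, 195C>G signal 161) in a region within NFIX. The 69 regions of this list had a median score of 31.7, beside 34.5 over all shared distal regions, and 39 of them (56.5%) were in 195C>G.

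Cytokine signalling genes of red cell progenitors were counted in 14 of 23 cases (60.9%, 38.5 to 80.3%), with 9 of the 23 beside a region without ZBTB7A. After SMAD7, PIM1, a kinase induced by erythropoietin, had a score of 168 with place 905 and no WT region. KIT, the receptor of stem cell factor, had 165 with a WT signal of 17.1 in a region 185 kb from its start. LYN, a kinase below the erythropoietin receptor, had 69.5 with a WT signal of 110. Genes of the red cell membrane and of blood groups were counted in 17 of 36 cases (47.2%, 30.4 to 64.5%), with 7 of the 36 beside a region without ZBTB7A. ANK1, which encodes ankyrin, had a score of 650 and the third strongest WT signal of all, 322, with a 195C>G signal of 273 and no K562 region. GYPC, the glycophorin C gene, had 271 (WT signal 186, 195C>G signal 213), also without K562. SLC2A1, the glucose transporter of red cells, had 126 with place 49 in K562 and a WT signal of 221. SPTB, beside the region with the printed sequence, had its best score, 94.5, in another region (WT signal 29.1, 195C>G signal 58.8). That region lay 22.1 kb from the SPTB start of the deposited annotation, which is not the RefSeq start of the printed sequence.

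Fetal globin regulators were counted in 10 of 24 cases (41.7%, 22.1 to 63.4%), with 8 of the 24 beside a region without ZBTB7A. Some genes stand in several lists and were counted in each. NFIX, BCL11A, NFIA, ZBTB7A and MYB are also among the counted erythroid transcription factors, and the best region of NFIX is the one given for LYL1. After ARID3A and NFIX, a region between HBS1L and MYB, where variants alter fetal haemoglobin, had a score of 110 (WT signal 53.3, 195C>G signal 116). EIF2AK1, the heme-regulated kinase of translation, had 86.2 with a WT signal of 25.4. BCL11A itself had 1 shared distal region, in its intron, with a score of 61.0, a WT signal of 62.9 and a 195C>G signal of 30.1, and ZBTB7A had 2, the better with a score of 35.2 beside a WT signal of 146. Of the α-globin locus NPRL3, the gene whose introns carry the α-globin enhancers, was counted with 3 regions. The best had a score of 65.4 with place 41 in K562 and a WT signal of 257, and HBA1, HBA2, HBZ, HBM and HBQ1 were not counted.

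Heme synthesis and iron genes were counted in 7 of 30 cases (23.3%, 9.93 to 42.3%), with 3 of the 30 beside a region without ZBTB7A. The interval of this list included the 13.3% of all NM genes. SLC25A37, the mitochondrial iron importer mitoferrin, had a score of 109 34.4 kb from its start, with place 200 in K562, a WT signal of 232 and a 195C>G signal of 310 at rank 4. UROS, an enzyme of the same pathway as ALAS1, had 97.4 (WT signal 112), ALAS1, the housekeeping form of the first enzyme, 92.1 (WT signal 29.0) and BLVRA, a biliverdin reductase, 51.2 (WT signal 22.4). Genes of survival, death and the cell cycle were counted in 8 of 26 cases (30.8%, 14.3 to 51.8%), with 6 of the 26 beside a region without ZBTB7A. The best score was that of CCND3, a cyclin that sets the number of divisions of red cell precursors, at 172, with a WT signal of 250 and a 195C>G signal of 297 at rank 9. BCL2L11, a death activator, had 96.6, BNIP3L, which clears mitochondria, 41.4 and CDKN2C, a cell cycle inhibitor, 39.2. Organelle clearance genes were counted in 4 of 18 cases (22.2%, 6.41 to 47.6%), UBE2O, BNIP3L, FOXO3 (score 21.9) and XPO7 (score 14.8). Likewise 4 of the 18 stood beside a region without ZBTB7A, and the interval again included the 13.3% of all NM genes.

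Corepressor subunits were counted in 5 of 25 cases (20%, 6.83 to 40.7%), fewer than the 6 of 25 beside a region without ZBTB7A, and the interval included the 13.3% of all NM genes. GATAD2A, a NuRD subunit, had a score of 119 (WT signal 45.9). Its region covered bases 250 to 64 before the RefSeq start of GATAD2A and reached further upstream. It was distal only by the NM starts of the deposited annotation, the nearest of which was 19.6 kb away. CTBP2 had 67.7 and BCOR 60.2. Lists of other cell types were counted in 3 of 16 cases for megakaryocytes, 2 of 18 for myeloid cells, 2 of 14 for lymphoid cells and 1 of 19 for hepatocytes and neurons, and the interval of each included the 13.3% of all NM genes. Beside a region without ZBTB7A stood 5 megakaryocyte, 2 myeloid, 1 lymphoid and 1 hepatocyte or neuron gene of these lists. GP9, a platelet glycoprotein, had a score of 557 (WT signal 60.2), MYH9 238 (WT signal 88.0) and PLEK 142 (WT signal 80.1), whereas CEBPE, a granulocyte factor, had 44.7, FCGR3A 27.0, HNF4A 28.4, EBF1 25.3 and CD79A 13.3.

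Hairpins of microRNAs, short RNAs that silence messenger RNAs, lay within 3 kb of the midpoint of 33 of the 3252 shared distal regions, 31 hairpins in all. Hairpins near distal regions without ZBTB7A were not counted, so these numbers do not set the shared distal regions apart. Beside MIR144, a microRNA of red cell maturation, 2 shared distal regions were found, with midpoints 994 bp to one side of the hairpin and 617 bp to the other. The first, on chromosome 17 from 28860437 to 28860727, had a score of 167, a WT signal of 24.8 and a 195C>G signal of 33.4 and was not in K562. The second, from 28862008 to 28862377, had a score of 14.6, place 9139 in K562 and a WT signal of 26.9 and was not in 195C>G.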

How the data were processed

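Per the submitters' processing notes, the tools were Trimmomatic 0.3.2, Bowtie2 2.2.9, Bowtie, Picard and bedtools, and the build GRCh38 (hg38). Each region of the deposited BCL11A list has a score. Regions deposited for WT and 195C>G cells have an SPP signal, the −log10 of the false discovery rate (not used here) and a summit. The deposited K562 list gives coordinates only, so the place in its file order stands in for a rank. By their file names the BCL11A and K562 lists keep regions reproducible between pooled replicates (IDR). No read counts are given. Chromosome 11 was left out because the HUDEP-2 ZBTB7A lists and the deposited annotation use a modified one.

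Identical regions were counted once and overlaps needed 1 bp. Shares have Clopper-Pearson intervals, medians order-statistic intervals and the averaged decile difference a normal binomial interval, all at 95% (Python 3.11.15, SciPy 1.17.1). The functions were tested on simulated data. RefSeq gene ends equalled those of the deposited annotation at the start or the end for 7461 of 17150 matched genes. Of 290 listed genes, 272 were annotated outside chromosome 11.

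The members, the gene lists and the comparisons were chosen with earlier results of these data known. Named were the 20 regions of highest BCL11A score, the 10 of best rank sum found in K562, WT and 195C>G, the 5 genes with most regions, up to 4 genes per list, and the regions at the limits of the rule; other names were picked after their values were seen. Some regions and genes that these rules select are not reported here.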

Additional observations from a re-analysis of the deposited data

How the results depend on the processing

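No paired analysis was possible because the lists pool replicates or come from 1 library, and for the same reason no replicate could be left out. The 5 main values (3252 regions, 59.0% shared, 62.3% in 195C>G, median score 34.5, median distance 68 bp) stayed within 1.5 times, or within their interval, with distal limits of 1 and 10 kb, with NR starts added, with overlapping BCL11A regions merged, without chromosome 19 and, added after seeing the data, without regions at RefSeq starts. With reciprocal overlap of at least 50% they were 2180 regions (within 1.5 times), 39.6%, 54.1%, 29.5 and 56.2 bp. With the stronger 50% of every list (for K562, which has no value, the first listed 50%) they were 1384, 50.7%, 59.1%, 60.2 and 64 bp. With the K562 list only they were 1283, 23.3%, 66.6%, 36.1 and 62 bp. With the WT list only the shares were 53.9 and 67.4%. With 370 bp regions only, added after seeing the data, the values were 2150, 54.3%, 60.6% and 24.8. The share in 195C>G of distal regions without the ZBTB7A region asked for lay between 4.75 and 6.12% except with K562 alone, where it was 30.3% because WT regions then counted as unshared. The averaged difference between WT regions with and without BCL11A, tried with 6 alternatives added after seeing the data, was 10.7 points with reciprocal overlap, 10.4 with the stronger 50% and 14.8 to 15.8 with the others. For the other changed values the cause was not tested.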
